A study of Mus musculus with 13 samples.

Results

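Genes that mark resting, recirculating T cells were followed in mouse regulatory T cells (Tregs). They were the transcription factor genes Bach2, Foxo1, Foxp1, Klf2, Klf3 and Satb1, and the receptor genes S1pr1, Ccr7 and Il7r. These 9 genes were chosen by name, with earlier results of these data known. All 9 were found among the 24313 genes with a readable name in the deposited expression table. RNA was measured in 3 CAT and 3 WT libraries and open chromatin by ATAC-seq, in which a transposase cuts accessible DNA, in 2 CAT and 3 WT libraries. Binding of the transcription factor TCF1 was mapped by ChIP-seq in 1 WT library.

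CAT mice carried Foxp3Cre-YFP together with Ctnnb1flex3, and WT mice carried Foxp3Cre-YFP alone, so that both groups held the Cre and fluorescent protein allele at Foxp3. In CAT mice, cells that express Foxp3 lose exon 3 of Ctnnb1 and make a form of beta-catenin that is known to escape degradation. All mice were C57BL/6 males, aged 21 days for RNA-seq and ATAC-seq and 10 to 12 weeks for TCF1 ChIP-seq. The cells were sorted as YFP+ CD25+ from purified CD4+ T cells, taken from lymph nodes for ATAC-seq and from lymph nodes and spleen for ChIP-seq. The labels do not say how many animals went into a library, so p-values measure the spread between libraries.

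A resting T cell is kept small and mobile by a set of repressors and receptors. BACH2 and FOXP1 restrain effector and activation programs, and FOXO1 and KLF2 drive genes for lymph node entry and exit. CCR7 guides T cells into lymph nodes, S1PR1 draws them out again into lymph, and IL-7 receptor signals sustain resting cells. In Tregs several of these genes are known to mark the central, lymphoid state, whereas effector Tregs of tissues tend to carry less of them. Il7r and Satb1 stand apart, as both are known to be held low in Tregs.

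The 9 genes did not move together. In CAT Tregs 6 of them fell (Bach2, Foxo1, Foxp1, Klf2, Klf3 and S1pr1) and 3 rose (Satb1, Ccr7 and Il7r). All 9 passed the filter on low counts and an adjusted p of 0.05 in edgeR's quasi-likelihood test, and for none of the 9 did the CAT and WT libraries overlap. Among the 13193 genes tested, 49.0% were called in either direction, 25.5% higher and 23.5% lower in CAT. The share of all tested genes with no overlap was 59.2%, so that calls and separation were common in these libraries. The median log2 change was -0.61 over the 9 genes and 0.001 over all genes tested. The largest change of the 9 was the 5.67-fold rise of Il7r, and the largest fall was that of Bach2, to 0.345 of its WT level.

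**Figure D1:**
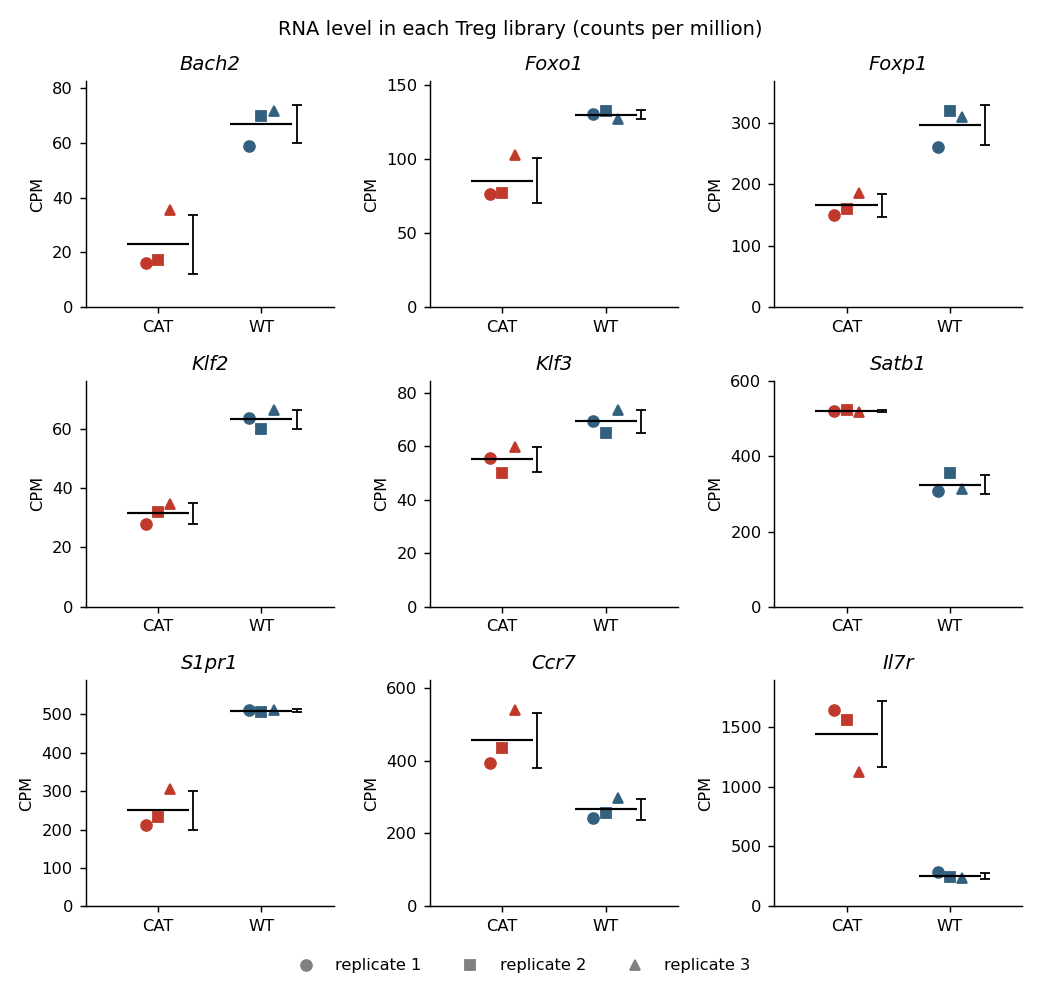
RNA level of the 9 genes in each library as CPM (fragment counts scaled to a common library total), with CAT at the left and WT at the right of each panel. Points are libraries, horizontal lines are means and bars are SD (n = 3 each). In each of the 9 panels the CAT and WT points are separate, and CAT replicate 3 lies nearer to WT than the other CAT libraries in 8 of them.

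The RNA libraries held 24124086 to 28456490 assigned fragments in CAT and 25430629 to 31527245 in WT. Genes with a fragment numbered 15942, 16051 and 15955 in CAT replicates 1, 2 and 3, and 19640, 15747 and 19735 in WT replicates 1, 2 and 3. WT replicates 1 and 3 thus stood apart from the other libraries in this count. The labels name no batch, and the part of this split in the changes below was not tested. Foxp3 averaged 158.1 ± 7.17 CPM in CAT and 104.9 ± 16.1 CPM in WT, and Cd4 averaged 655.4 ± 47.7 CPM in CAT and 594.1 ± 23.8 CPM in WT (SD, n = 3 each). Cd8a had 20 to 33 fragments per CAT library and 4 to 14 per WT library. Summed CPM of 11 myeloid markers was 26.0 to 49.3 in CAT libraries and 14.8 to 22.0 in WT libraries, and of the 6 tested 3 were higher and 3 lower in CAT. Among them Lyz2, a lysozyme gene, averaged 0.825 CPM in CAT and 8.42 CPM in WT, and Fcgr3, an Fc receptor gene, averaged 25.0 CPM in CAT and 2.11 CPM in WT. Summed CPM of 13 CD8 T cell and NK cell markers was 1230 to 3790 in CAT libraries and 33.3 to 38.7 in WT libraries. Of the 11 such markers tested, 10 were higher in CAT and none lower, with the granzyme gene Gzma at a mean of 2589 CPM in CAT and 0.920 CPM in WT. Ctnnb1 as a whole gene had 406 to 485 CPM in CAT and 461 to 508 CPM in WT, and gene counts do not resolve its exon 3. CAT replicate 3 stood apart from the other CAT libraries, at -26.7 on the second principal component of all genes (6.47% of variance) against 15.7 and 7.05. The part of marker genes and of that library in the changes below was not tested. In these bulk samples fewer cells with a gene and less RNA per cell cannot be told apart.

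Bach2 encodes a repressor that competes with AP-1 factors and holds T cells, Tregs included, back from effector differentiation. Bach2 had 16.2, 17.4 and 35.4 CPM in CAT replicates 1, 2 and 3, against 58.8, 69.8 and 71.8 CPM in WT replicates 1, 2 and 3. All CAT libraries lay below the lowest WT library, and CAT replicate 3 stood apart above the other CAT libraries. Bach2 changed by -1.53 ± 0.26 on the log2 scale (SE, 95% interval -2.12 to -0.95, edgeR adjusted p = 0.00115). Without CAT replicate 3 the change was -1.99. At 2.58 FPKM in CAT and 7.37 FPKM in WT it had the lowest level per length of the 9 genes in both genotypes.

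Foxo1 encodes the transcription factor that AKT signalling shuts out of the nucleus, and whose known targets include Klf2, Ccr7 and Il7r. Foxo1 had 76.2, 77.0 and 103.1 CPM in the CAT libraries and 130.6, 133.0 and 127.0 CPM in the WT libraries. The 3 WT libraries lay close together above all CAT libraries. The change was -0.61 ± 0.12 (log2 ± SE, edgeR adjusted p = 0.00249). When WT replicates 1 and 3 were left out together its adjusted p was 0.0509.

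Foxp1 encodes a forkhead factor that is known to oppose FOXO1 at the Il7r locus in naive T cells. Foxp1 had 149.7, 160.5 and 186.6 CPM in CAT and 260.2, 320.3 and 310.5 CPM in WT. The groups were apart by more than the spread within either. The log2 change was -0.84 ± 0.11 (SE, edgeR adjusted p = 0.00027). The annotation places 5 other genes over Foxp1, and the counting is not stated to use strand, so their fragments cannot be told apart from those of Foxp1.

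Klf2 encodes the zinc finger factor that activates S1pr1 in T cells. Klf2 had 27.8, 31.9 and 34.7 CPM in CAT, against 63.6, 59.9 and 66.3 CPM in WT. Every WT library had more than 1.5 times the level of every CAT library. The change was -1.01 ± 0.10 (log2 ± SE, edgeR adjusted p = 5.16e-05). Klf3, a related repressor gene that KLF factors are known to activate, had 55.4, 50.1 and 59.6 CPM in CAT and 69.4, 64.8 and 73.4 CPM in WT. The gap between the groups was narrow, with the highest CAT library close to the lowest WT library. Its change of -0.33 ± 0.092 (log2 ± SE, edgeR adjusted p = 0.0146) was the least of the 9 genes. Without CAT replicate 2 the change of Klf3 was -0.26 with an adjusted p of 0.061, and without WT replicates 1 and 3 it was -0.25 with an adjusted p of 0.217. On log2(FPKM + 1) tested with limma the adjusted p of Klf3 was 0.0802. Klf3 shares its locus in the same way with Gm38457 and Gm31684, and Bach2 with Bach2os.

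Satb1 encodes a genome organiser that is abundant in thymocytes, and FOXP3 is known to hold it down in Tregs. Satb1 had 521.5, 523.1 and 517.0 CPM in CAT and 308.4, 354.8 and 312.1 CPM in WT. The CAT libraries were nearly equal, and all lay above WT. Satb1 rose by 0.68 ± 0.083 on the log2 scale (SE, edgeR adjusted p = 0.000173). Foxp3 itself had a log2 change of 0.59 ± 0.11 (SE, edgeR adjusted p = 0.00221) in the same libraries.

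Among the receptors, S1pr1 and Ccr7 moved in opposite directions. S1pr1, the sphingosine 1-phosphate receptor gene for lymph node exit, had 210.7, 232.3 and 306.8 CPM in CAT and 512.2, 506.6 and 511.4 CPM in WT. The WT libraries were nearly equal, and the highest CAT library was well short of them. S1pr1 fell by 1.03 on the log2 scale (SE 0.13, edgeR adjusted p = 0.000206). Ccr7, the receptor gene for lymph node entry, had 393.4, 434.4 and 539.6 CPM in CAT and 242.7, 257.1 and 298.4 CPM in WT. CAT replicate 3 was the highest CAT library for both receptors, which put it nearer to WT for S1pr1 and farther from WT for Ccr7. Ccr7 rose by 0.78 ± 0.13 on the log2 scale (SE, edgeR adjusted p = 0.000965).

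The ratio of Ccr7 to S1pr1, taken per length as FPKM, was 3.78, 3.06 and 2.88 in the CAT libraries and 1.01, 0.830 and 0.954 in the WT libraries. It averaged 3.24 ± 0.478 in CAT and 0.932 ± 0.0928 in WT (SD, n = 3 each), with no overlap. The two-sided exact permutation test gave p = 0.1, the smallest that 3 against 3 libraries allow. This ratio was chosen after the values were seen. In FPKM every CAT library lay above WT for Ccr7 and below WT for S1pr1, so the ratio could not overlap. Its p was thus fixed in advance and adds no support. Relative to its median over libraries, FPKM per CPM of Ccr7 was 1.2 in CAT replicate 1 and 1.18 in WT replicate 1. For S1pr1 it was 0.967 and 0.908, so the authors' length scaling raised the replicate 1 ratio in both genotypes.

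Il7r encodes the alpha chain of the IL-7 receptor, which is high on resting conventional T cells and known to be low on most Tregs. Il7r had 1642, 1553 and 1124 CPM in CAT, against 283.4, 243.0 and 235.0 CPM in WT. The lowest CAT library, replicate 3, still had several times the highest WT level. Il7r rose by 2.50 ± 0.15 on the log2 scale (SE, 95% interval 2.16 to 2.85, edgeR adjusted p = 3.1e-06), and by 2.66 without CAT replicate 3. Il7r thus rose while Foxo1 and Foxp1 both fell.

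**Figure D2:**
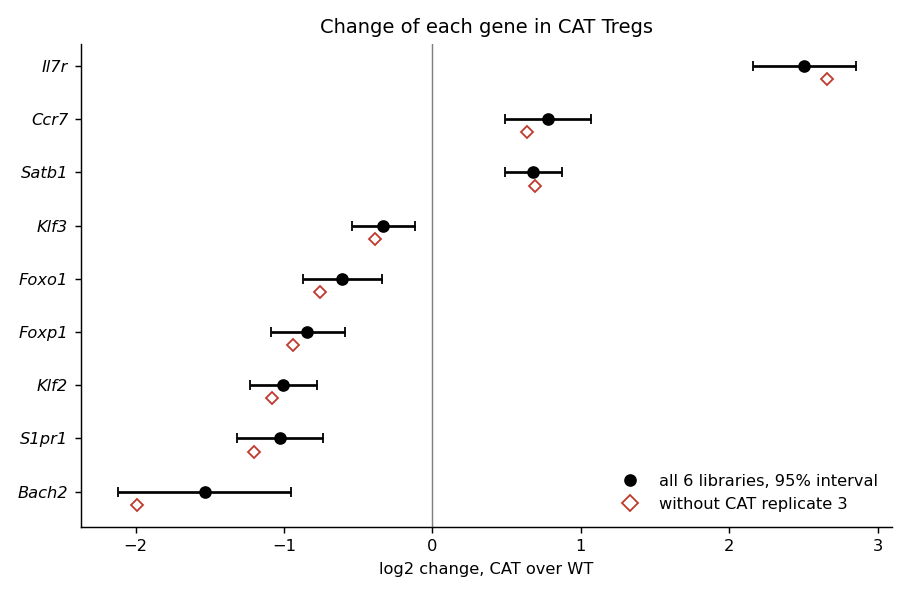
Change of each gene as log2 of CAT over WT, sorted by size. Filled points are estimates from all 6 libraries with 95% intervals and open diamonds are estimates without CAT replicate 3. No interval reaches 0, and Bach2 moves most, to -1.99, when that library is left out.

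CAT replicate 3 differed most from the mean of the other CAT libraries for Bach2, by 1.08 on the log2 CPM scale. The same difference was 0.47 for S1pr1, 0.43 for Foxo1, 0.38 for Ccr7 and -0.51 for Il7r, and it was at most 0.27 in size for the other 4 genes. Leaving out that library left all 9 genes past the threshold in edgeR, and moved the log2 change away from 0 for 8 of them, all but Ccr7 at 0.64.

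Levels per length also changed their order. In CAT the mean FPKM, in falling order, was 428.6 for Il7r, 266.8 for Ccr7, 83.7 for S1pr1, 79.5 for Satb1, 25.3 for Klf3, 22.6 for Foxp1, 22.2 for Klf2, 15.3 for Foxo1 and 2.58 for Bach2. The libraries of S1pr1 and Satb1 overlapped there, as did those of Klf3, Foxp1 and Klf2, and other neighbours did not. In WT it was 167.2 for S1pr1, 155.4 for Ccr7, 74.2 for Il7r, 49.5 for Satb1, 46.3 for Klf2, 39.2 for Foxp1, 31.0 for Klf3, 23.1 for Foxo1 and 7.37 for Bach2. In WT the libraries overlapped between S1pr1 and Ccr7, between Satb1 and Klf2, between Klf2 and Foxp1, and between Foxp1 and Klf3. Il7r, which ranked below S1pr1 and Ccr7 in every WT library, ranked above both in every CAT library. The authors' FPKM were scaled by length differently in replicate 1 of both genotypes. FPKM per CPM departed by more than 1.2-fold from its median over libraries for 23.3% of genes in CAT replicate 1 and 33.1% in WT replicate 1, and for at most 0.136% elsewhere. Klf2 was one such gene, with 27.4, 18.8 and 20.4 FPKM in the CAT libraries and 64.6, 35.4 and 38.9 FPKM in the WT libraries.

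Genes around these 9 were counted in lists written from general knowledge, with earlier results of these data known. Of 12 naive T cell markers tested, 2 were higher and 6 lower in CAT, with a median log2 change of -0.37. Cd28, a costimulatory receptor gene, averaged 284.1 ± 8.79 CPM in CAT and 528.4 ± 31.5 CPM in WT (SD, n = 3 each) and fell by 0.90 on the log2 scale (edgeR adjusted p = 2.65e-05). Ly6c1, a surface marker of resting T cells, changed by -1.17 and Actn1, an actin crosslinker gene, by -0.97 (edgeR adjusted p = 0.000615 and 0.0404). Pde3b, a cyclic nucleotide phosphodiesterase gene, went the other way at 1.03 (adjusted p = 0.0357), but in CAT replicate 3 it had 11.7 CPM, below the lowest WT value of 12.2. For Actn1 too the groups overlapped, with 172.1 CPM in CAT replicate 3 and 163.6 CPM in WT replicate 1.

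Of 27 quiescence factors tested, 3 were higher and 7 lower, with a median of -0.04, a share of calls below that of all genes. Btg2, an antiproliferative gene, averaged 171.0 ± 13.6 CPM in CAT and 486.9 ± 15.2 CPM in WT (SD, n = 3 each), a change of -1.51 (edgeR adjusted p = 2.04e-06). Tcf7, which encodes TCF1, had 62.4, 71.4 and 140.3 CPM in CAT and 162.0, 144.7 and 158.7 CPM in WT. CAT replicate 3 lay just under the WT libraries for Tcf7, and the change was -0.76 ± 0.26 (log2 ± SE, edgeR adjusted p = 0.0331). Slfn2, a gene needed for T cell quiescence, changed by -0.62, and Cdkn2c, a cell cycle inhibitor gene, rose by 1.56 (edgeR adjusted p = 0.000669 and 0.000179).

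Among 22 genes of lymphoid homing and egress, 9 were higher and 4 lower, with a median of 0.18. Cd69, whose protein binds S1PR1 and removes it from the cell surface, averaged 943.0 ± 99.7 CPM in CAT and 251.5 ± 47.3 CPM in WT (SD, n = 3 each), a rise of 1.91 (edgeR adjusted p = 9.51e-06). Itga4, the alpha 4 integrin gene, had 37.1, 41.7 and 55.4 CPM in CAT and 602.3, 709.3 and 793.5 CPM in WT. It fell by 3.97 on the log2 scale (SE 0.17, edgeR adjusted p = 4.66e-07), more than any of the 9 genes. Selplg, a selectin ligand gene, and Rap1b, a GTPase gene of integrin activation, rose by 0.66 and 0.67 (edgeR adjusted p = 0.000311 and 0.000693).

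Targets of FOXO and KLF factors split, with 7 higher and 8 lower of 19 tested and a median of -0.20. Sesn1, a stress gene that restrains mTORC1, averaged 55.5 ± 7.35 CPM in CAT and 244.3 ± 9.19 CPM in WT (SD, n = 3 each), a change of -2.14 (edgeR adjusted p = 1.12e-06). Bcl6, a repressor gene of follicular T cells, changed by -1.81 (edgeR adjusted p = 0.00102). Ctla4, an inhibitory receptor gene, rose by 1.95 and the cell cycle inhibitor gene Cdkn1a by 4.44, the last against a WT mean of 0.602 CPM (edgeR adjusted p = 2.13e-05 and 0.00013). Of 32 genes of the PI3K and AKT pathway that controls FOXO1, 12 were higher and 5 lower, with a median of 0.09. The kinase gene Sgk1, whose product also phosphorylates FOXO factors, averaged 100.2 ± 5.67 CPM in CAT and 15.2 ± 1.35 CPM in WT (SD, n = 3 each), a rise of 2.72 (edgeR adjusted p = 2.08e-07). Its relative Sgk3 changed by -1.37 and the PI3K adaptor gene Pik3ap1 by 3.20 (edgeR adjusted p = 0.000385 and 7.92e-06).

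Genes of IL-7 receptor signalling were higher in 12 and lower in 2 of 20 tested, with a median of 0.53. The 2 lower were the survival genes Bcl2 at -0.60 and Mcl1 at -0.38 (edgeR adjusted p = 0.00674 and 0.00534). Both were picked after their values were seen. The feedback inhibitor genes Cish and Socs2 rose by 1.40 and 1.35 (edgeR adjusted p = 1.82e-06 and 1.44e-05). Cish averaged 183.2 ± 10.1 CPM in CAT and 69.2 ± 1.24 CPM in WT (SD, n = 3 each). Crlf2, which pairs with the IL-7 receptor alpha chain to form the TSLP receptor, rose by 1.32 (edgeR adjusted p = 0.000584). Il2rg, the shared gamma chain gene, had a log2 change of 0.16 with an adjusted p of 0.147 and was picked after its values were seen. Il2ra, which encodes CD25 and so was part of the sort, rose by 1.44 (edgeR adjusted p = 3.36e-06). The list shares Il2ra and 3 other receptor genes with the list of related receptors.

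Partners and opponents of BACH2 were higher in 12 and lower in 4 of 20 tested, with a median of 0.63. Prdm1, which encodes the effector regulator BLIMP1 and is a known BACH2 target, had 244.6, 222.5 and 215.0 CPM in CAT and 20.9, 24.8 and 23.4 CPM in WT. Prdm1 rose by 3.30 ± 0.10 on the log2 scale (SE, edgeR adjusted p = 1.19e-07), and whether it followed the level of Bach2 was not tested. Hmox1, a heme oxygenase gene that the BACH family represses, averaged 5.67 ± 0.457 CPM in CAT and 1.60 ± 0.384 CPM in WT (SD, n = 3 each), a rise of 1.83 (edgeR adjusted p = 0.000169). The AP-1 family gene Fosl2 rose by 2.25 and the bZIP repressor gene Nfil3 by 2.01 (edgeR adjusted p = 3.89e-06 and 1.17e-06). The other Jun and Fos genes listed did not share a direction. Jun changed by -1.30, Junb by 0.46 and Jund by 0.70 (edgeR adjusted p = 5.56e-05, 0.00948 and 0.00204). Fos at 0.28 and Fosb at -0.73 were not called (edgeR adjusted p = 0.268 and 0.0601). These genes were picked after their values were seen. Of 19 chromatin partners of SATB1, 1 was higher and 4 lower, with a median of -0.06. The deacetylase genes Hdac2 and Hdac3 changed by -0.62 and 0.26 and the DNA repair genes Xrcc5 and Xrcc6 by -0.41 and -0.26 (edgeR adjusted p = 0.000558, 0.0134, 0.00407 and 0.0318).

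**Figure D3:**
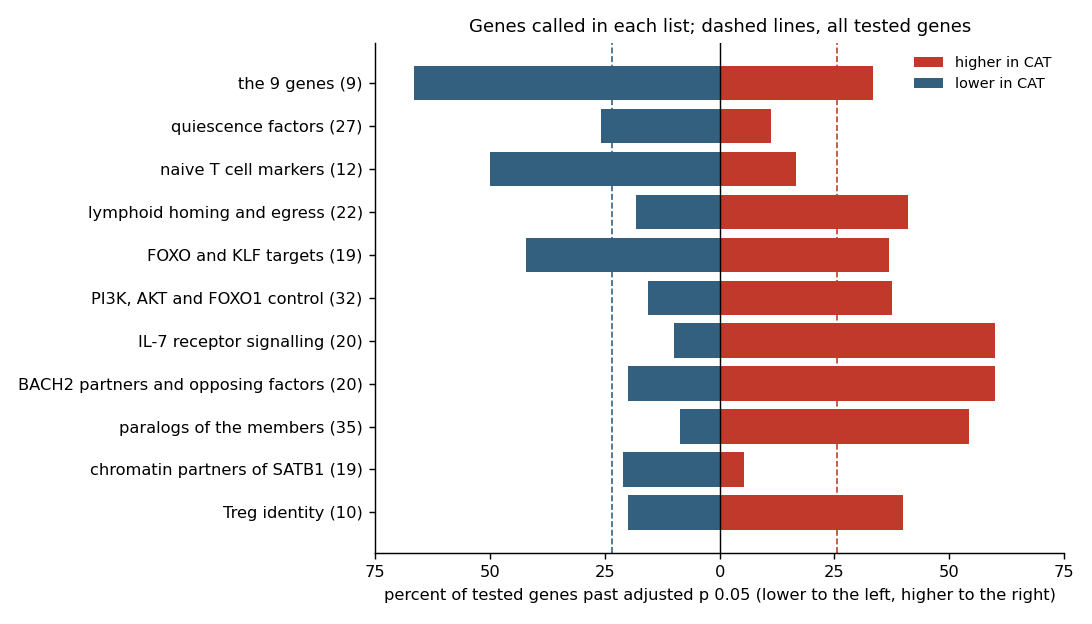
Percent of tested genes in each list that were higher in CAT (right) or lower in CAT (left) at an edgeR adjusted p of 0.05, with the number tested in brackets. Dashed lines mark all 13193 tested genes, at 25.5% and 23.5%. The lists of IL-7 receptor signalling and of BACH2 partners extend farthest to the right of the lists drawn, and the 9 genes extend farthest to the left.

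The chromatin of the 9 genes was read from the authors' peak lists, which give no read counts. Peaks of all 5 ATAC libraries that overlapped by at least 1 bp were joined, and each region was called common (a peak in all 5), lost (in all 3 WT and neither CAT list), gained (in both CAT lists and no WT list) or mixed. The lists differed as wholes, with 27129 and 29548 peaks in CAT and 41197, 35771 and 33204 in WT. The median peak was 254 bp wide in both CAT lists and 384, 399 and 385 bp in the WT lists. Lost regions and narrower CAT peaks at a gene therefore went with a difference that the lists showed genome-wide, and its part was not tested. Read depth is unknown, and 2 against 3 lists cannot give a two-sided exact permutation p under 0.2.

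Within the 9 gene spans and 5 kb on either side lay 107 regions. Of these 36 (33.6%) were common, against 40.4% of all 49014 regions. Lost regions numbered 16 (15.0%, against 12.4% of all regions), a share near that of the genome. Gained regions numbered 2 (1.87%, against 3.94%), and 5 when either CAT list was left out. The other 53 (49.5%, against 43.3%) were mixed. The lost regions lay at Foxp1 (8), Bach2 (3), Foxo1 (3) and Satb1 (2), and the other 5 genes had none. At least 1 lost region was found at 20.4% of tested genes and at least 1 gained region at 6.38%. The gained regions lay at Foxo1 and Foxp1. The 6 genes that fell held 14 of 92 regions as lost and the 3 that rose held 2 of 15. Klf2, Klf3 and S1pr1 thus fell without any region lost at their loci.

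Foxp1, on chromosome 6 (mm10, 98925342 to 99522746), held 45 regions, of which 10 were common, 8 lost and 1 gained. Only 1 tested gene had more lost regions than Foxp1, which with its 597405 bp is also long. Its peaks covered 3949 and 4419 bp in CAT and 18145, 14327 and 12152 bp in WT. Per megabase of total peak length in each list this came to 447 and 461 bp in CAT and 834, 742 and 706 bp in WT, a mean ratio of 0.597. Both the raw and the scaled length were lower in CAT. Of 3 Foxp1 start sites in the RefSeq promoter table, 2 had upstream windows that touched a lost region. The region chr6:99028062-99028770 covered one of these start sites and had peaks of 472, 707 and 565 bp in WT and none in CAT. The 250 bases upstream of that start site are shown because they lie in a promoter region that only WT lists held, with a KLF-type CCACCC box (here GGGTGG on the strand shown) in capitals.
Foxp1 upstream, chr6:99028299-99028548, minus strand: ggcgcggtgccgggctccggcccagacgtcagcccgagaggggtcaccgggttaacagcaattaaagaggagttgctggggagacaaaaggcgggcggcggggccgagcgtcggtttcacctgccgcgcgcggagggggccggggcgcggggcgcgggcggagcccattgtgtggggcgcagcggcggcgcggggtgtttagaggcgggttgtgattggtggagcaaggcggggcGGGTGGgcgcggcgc

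Bach2, on chromosome 4 (32238413 to 32586109), held 31 regions, of which 14 were common, 3 lost and none gained. The 3 lost regions (chr4:32387755-32389051, chr4:32394796-32395194 and chr4:32405216-32406353) lay within 20 kb of each other, before the start site at 32417435 from which the authors' Bach2 locus runs. Peaks at Bach2 covered 627 and 517 bp per megabase of list in CAT and 664, 683 and 698 bp in WT, a mean ratio of 0.839. Foxo1, on chromosome 3, had 1 common region over its start site, 3 lost regions inside the gene and 1 gained region of 86 bp. Its peaks covered 1035 bp in each CAT list and 2904, 2111 and 1836 bp in WT, and per megabase of list the mean ratio was 0.966, with overlapping lists.

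**Figure D4:**
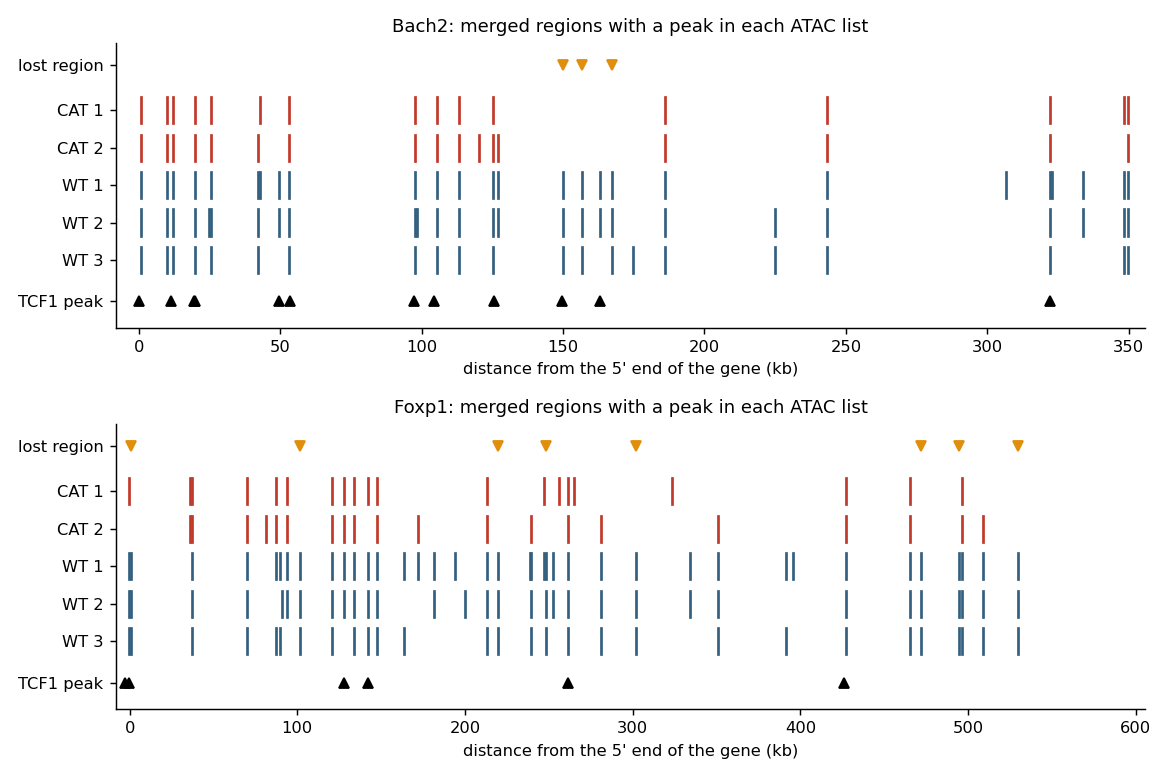
Position of merged ATAC regions along Bach2 (top) and Foxp1 (bottom), as distance in kb from the 5′ end of the gene. Each bar is a region with a peak in that list, orange triangles are the 3 lost regions at Bach2 and the 8 at Foxp1, and black triangles are TCF1 peaks in WT Tregs, 12 at Bach2 and 6 at Foxp1. The lost regions of Bach2 stand close together, while those of Foxp1 are spread along the gene.

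At S1pr1, Ccr7, Klf2 and Klf3 the direction depended on the scaling. Per megabase of list the peak length was higher in both CAT lists than in any WT list. Unscaled, it was lower in both CAT lists at Klf2 (531 and 471 bp in CAT, 822, 774 and 647 bp in WT) and at Klf3 (945 and 1170 bp in CAT, 1674, 1655 and 1280 bp in WT). Unscaled lengths overlapped at S1pr1 (584 and 755 bp in CAT, 994, 498 and 612 bp in WT) and at Ccr7 (404 and 386 bp in CAT, 458, 361 and 364 bp in WT). Scaled, S1pr1 had 66.0 and 78.7 bp in CAT and 45.7, 25.8 and 35.6 bp in WT, although its RNA fell. This took in a mixed region with unscaled peaks of 179 and 446 bp in CAT and 0, 0 and 250 bp in WT. The 1 common region at S1pr1 had narrower unscaled peaks in CAT (308 and 309 bp) than in WT (746, 498 and 362 bp). Ccr7, whose RNA rose, had 45.7 and 40.2 bp in CAT and 21.1, 18.7 and 21.2 bp in WT. At Ccr7 this rested on 1 common region of 461 bp, whose peak length was 404 and 386 bp in CAT and 373, 361 and 364 bp in WT. On that scale Klf2 had a ratio of 1.42 and Klf3 of 1.44, while Il7r at 1.07 and Satb1 at 0.941 had overlapping lists. Unscaled, Il7r had 785 and 692 bp in CAT and 1348, 1539 and 1447 bp in WT, and Satb1 had 1961 and 2143 bp in CAT and 5369, 4647 and 3800 bp in WT, both lower in CAT.

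**Figure D5:**
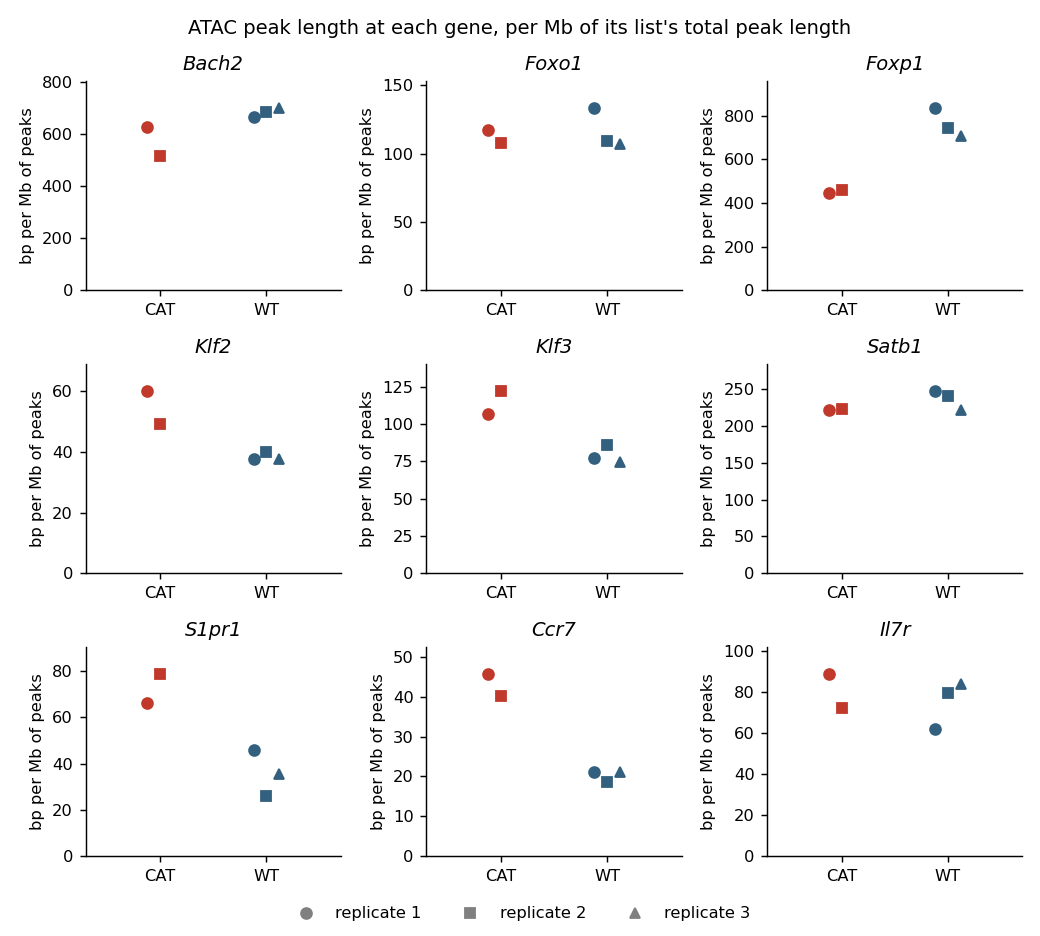
Length of ATAC peaks at each gene and 5 kb on either side, in bp per megabase of total peak length in the same list, with CAT at the left and WT at the right. Points are lists. On this scale Foxp1 and Bach2 are lower in both CAT lists than in any WT list, and Ccr7, S1pr1, Klf2 and Klf3 are higher. Unscaled lengths at Klf2 and Klf3 are lower in CAT, and those at S1pr1 and Ccr7 overlap.

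TCF1 had 30 peaks at the 9 loci in WT Tregs, and each gene had at least 1, against 38.6% of tested genes. Bach2 had 12, and none of the 12540 tested genes with a RefSeq span had more. The length of the locus enters that count. Its density of 3.35 peaks per 100 kb was reached or passed by 19.7% of tested genes. Of its 12 peaks, 11 lay before the start site at 32417435. The locus that the authors give Bach2, plus 5 kb, held 1 of the 12. The first of these peaks had its centre 161 bp inside the 5′ end of the RefSeq span, in a common region. Foxp1 had 6 peaks, Satb1 3, Klf2, Il7r and S1pr1 2 each, and Foxo1, Klf3 and Ccr7 1 each. Relative to length Klf2 was densest, at 15.9 peaks per 100 kb, a density that 0.566% of tested genes reached.

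Of the 30 TCF1 peaks 17 (56.7%) lay in common regions, against 86.4% of all 5876 TCF1 peaks. A further 7 (23.3%) lay outside every ATAC peak, against 4.95% of all TCF1 peaks, and they were spread over Bach2, Foxp1, Klf2, S1pr1 and Satb1. The TCF1 mice were older than the ATAC mice and part of the cells came from spleen, and the part of age and organ was not tested. In mixed regions lay 5 (16.7%, against 6.13%), and 1 (3.33%, against 2.45%) lay in a lost region, chr4:32387755-32389051 at Bach2. The other 15 lost regions of these genes held no TCF1 peak. With 1 ChIP library these counts have no replicate.

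Klf2, on chromosome 8 (72319062 to 72321654), had 1 region, common to all lists, over its start site. Its peaks were 531 and 471 bp wide in CAT and 822, 774 and 647 bp in WT. A TCF1 peak, chr8:72318939-72319080, sat on the start site. The bases of that peak upstream of the start site are shown because the gene fell while its open region stayed common to all lists. The capitals mark a CCACCC box, read on the opposite strand. The TCF/LEF motif CTTTGA was not found in the 250 bases upstream.
Klf2 upstream, chr8:72318939-72319061, plus strand: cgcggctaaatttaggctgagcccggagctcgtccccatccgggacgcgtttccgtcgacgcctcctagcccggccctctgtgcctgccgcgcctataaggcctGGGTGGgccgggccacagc

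Il7r, on chromosome 15 (9506159 to 9529941), had 3 regions, all common, and 2 TCF1 peaks. A TCF1 peak, chr15:9529750-9529891, spanned its start site inside a region with peaks of 163 and 209 bp in CAT and 103, 254 and 251 bp in WT, which overlapped. The upstream bases of Il7r are shown because the gene changed most while its regions stayed common. An ETS-type motif, ACAGGAAG, is in capitals (CTTCCTGT on the strand shown), and an ETS site that GABP binds is known in the mouse Il7r promoter.
Il7r upstream, chr15:9529877-9530126, minus strand: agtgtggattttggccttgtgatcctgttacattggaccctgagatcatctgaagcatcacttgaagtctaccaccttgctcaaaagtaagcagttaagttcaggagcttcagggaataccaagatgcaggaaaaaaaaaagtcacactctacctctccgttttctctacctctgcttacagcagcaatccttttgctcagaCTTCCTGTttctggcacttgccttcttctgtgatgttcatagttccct

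Klf3, on chromosome 5 (64803521 to 64832901), had 2 common regions, and the one over its start site had peaks of 702 and 843 bp in CAT and 857, 829 and 883 bp in WT. Its upstream window held CCACCC 3 times, on either strand, and is shown for these boxes, which KLF factors bind.
Klf3 upstream, chr5:64803271-64803520, plus strand: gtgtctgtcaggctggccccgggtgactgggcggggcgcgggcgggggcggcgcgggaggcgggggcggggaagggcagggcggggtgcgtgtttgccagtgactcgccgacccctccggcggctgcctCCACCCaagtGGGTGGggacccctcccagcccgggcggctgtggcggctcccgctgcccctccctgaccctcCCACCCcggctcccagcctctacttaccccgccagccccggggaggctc

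RefSeq promoter windows of build GRCm38.p6, the assembly behind mm10, were found for 7 of the 9 genes, 13 windows in all, and were searched over the 250 bases upstream on both strands. CCACCC was found in 7 of the 13, against 28.1% of 32851 windows of that length, and CTTTGA in 2 (Bach2 and Foxp1), against 13.8%. ACAGGAAG was found in 1 (2.90% of all windows). The FOXO motif TGTTTAC and the AP-1 and BACH2 motif TGANTCA were found in none of the 13 (3.17% and 6.75% of all). Windows of 1 gene can overlap, as at Satb1, which had 5. The motifs were chosen with the sequences in view.

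By their pattern over the 6 RNA libraries, measured as Euclidean distance between centred log2 CPM among 8956 other genes at a mean of at least 10 CPM, the nearest genes were Parp3 and Mtss1 to Bach2 (both at 0.254), Kdm7a (0.0991) and Ddx18 (0.104) to Foxo1, and Ypel2 (0.117) and Tom1l2 (0.121) to Foxp1. Zfp28 (0.0496) and Lax1 (0.0952) were nearest to Klf2, Lamp1 (0.0521) and Klf16 (0.0759) to Klf3, and Man1a (0.0823) and Dck (0.0944) to Satb1. Creg1 (0.109) and Uros (0.134) were nearest to S1pr1, Zfp414 (0.179) and Znrf3 (0.182) to Ccr7, and Ckap2l (0.186) and Prc1 (0.189) to Il7r. These distances describe 6 libraries that share 2 genotypes, and Bach2 had the widest distance to its nearest gene.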

How the data were processed

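Per the file headers the authors deposited Cuffdiff output with estimated counts of fragments per gene and library, of which 92.5% were whole, and with FPKM values scaled between libraries. A second deposited table holds a Cuffdiff p-value and q-value for every locus. The deposited ATAC lists hold, per the file headers, a pileup signal, a ratio of fold enrichment and −log10 p and q values of each peak. Width and pileup were nearly unrelated within lists (rank correlation 0.0381 to 0.0547), so it is doubtful that scores match coordinates, and scores entered 1 alternative alone. Tools named in the submitters' processing notes are Bowtie, HOMER and MACS2, with build mm10. RNA aligner, strandedness and peak thresholds were not given in the sources used here.

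Estimated counts were rounded, 25 date-like names (0.265% to 0.281% of fragments) and 13 genes with a failed estimate were left out, and counts were tested with edgeR 4.0.16 (TMM, filter by expression, quasi-likelihood) in R 4.3.3, with Benjamini-Hochberg adjustment over all 13193 tested genes. The test was checked on simulated counts. CPM were computed with the TMM factors, except for untested genes, Ctnnb1 and the summed CPM of marker lists, which were scaled by library size. ATAC and TCF1 peaks were taken at RefSeq gene spans plus 5 kb with pandas 2.3.3. Replicates count from 0 in the RNA file and from 1 in the labels, so numbers serve as names.

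The members, gene lists and tests were chosen with earlier results of these data known. Named were all 9 genes, up to 4 genes per list with the largest change past the threshold at a mean of at least 1 FPKM, the 2 nearest patterns per gene, and defining markers; others are named as chosen later. A few genes under this rule are not reported here.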

Additional observations from a re-analysis of the deposited data

How the results depend on the processing

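Over 16 alternative settings per gene, 138 of 144 log2 changes kept their direction and their side of the threshold, none turned round, and 6 lost the call, 5 for Klf3 and 1 for Foxo1. With limma the number of genes called was 3906 on log2(FPKM + 1), 3886 on log2(FPKM + 0.1) and 4012 after quantile normalization, against 6466, and 8 of the 9 genes were called under each. Fewer genes entered those tests. Without WT replicates 1 and 3 together, the remaining WT library being assumed to vary like the CAT libraries, 3585 genes and 7 of the 9 were called. Leaving out 1 library gave 5105 to 6947 called genes and 8 or 9 of the 9. DESeq2 called 6345 genes and the authors' deposited q-values 5918, each with all 9. With a replicate block 6384 genes were called and all 9 of those studied. Deviations of same-numbered libraries correlated at 0.0692, -0.0762 and 0.136, and those of differently numbered libraries at -0.196 to 0.197. So few values cannot decide whether the numbers pair the libraries. Limited to ATAC peaks at or above the median −log10 q of their list, 4 regions were common, 1 lost and 2 gained. Since it is doubtful that scores match coordinates, this cut need not keep the stronger peaks, and no conclusion is drawn from it. Leaving out 1 ATAC list gave 36 to 42 common, 17 to 24 lost and 2 to 5 gained regions. With the authors' loci, chosen after seeing the data, 1 region was gained and 17 TCF1 peaks were counted, since the authors' Bach2 and Foxp1 loci are shorter. Without read counts ATAC differences could not be tested by signal.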

Other observations

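Relatives of the 9 genes were more often higher than lower in CAT Tregs. Of 35 tested, 19 were higher and 3 lower, with a median log2 change of 0.41, beside 25.5% and 23.5% of all tested genes. The 3 lower genes were Ccr6 at -2.26, Cxcr4 at -0.51 and Klf16 at -0.35 (edgeR adjusted p = 4.99e-06, 0.000788 and 0.0225). They were picked after their values were seen. Among the genes that rose were other chemokine receptor genes known from inflamed tissue. Ccr2, a receptor gene for monocyte chemokines, averaged 933.7 ± 97.7 CPM in CAT and 101.0 ± 15.1 CPM in WT (SD, n = 3 each), a rise of 3.21 (edgeR adjusted p = 3.97e-07). Cxcr6 had 378.3, 204.2 and 162.6 CPM in CAT and 35.8, 33.6 and 29.7 CPM in WT, and Ccr1 rose by 2.91 and Ccr10 by 3.63 (edgeR adjusted p = 3.96e-05 and 0.000242). Klf6, the most abundant per length of the KLF genes listed, averaged 67.2 FPKM in CAT and 62.8 FPKM in WT, with a log2 change of 0.09 and an edgeR adjusted p of 0.402. Klf6 was picked after its values were seen.

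Of 10 Treg identity genes 4 were higher and 2 lower, with a median of 0.19. Nrp1, a surface receptor gene, had 32.3, 23.1 and 28.3 CPM in CAT and 469.4, 594.8 and 620.1 CPM in WT. Nrp1 fell by 4.33 on the log2 scale (edgeR adjusted p = 2.08e-07). Ikzf2, of the same list, averaged 2100 CPM in CAT and 1793 CPM in WT. Its log2 change was 0.23 with an edgeR adjusted p of 0.061, and it was picked after its values were seen. Tnfrsf18, the GITR gene, rose by 0.79 (edgeR adjusted p = 0.000242).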
